A study of Homo sapiens with 12 samples.

Results

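A set of 40 genes of glycolysis and the hypoxia response was followed on expression arrays of LNCaP cells, an androgen-responsive line from a human prostate cancer, after transfection of a microRNA. Its members were chosen by symbol and make up 17 glycolytic enzymes, 20 other hypoxia-induced genes and 3 subunits of the hypoxia-inducible factors (HIF). On the arrays 37 of the 40 were named, among 11963 named genes in all, and CA9, SLC16A1 and SLC16A3 were not analysed here. Each gene is represented by its probe set of highest mean over the 12 arrays. Of the 37 genes, 31 were brighter than the median of their array on 3 or more arrays and were tested, among 6821 genes tested in all. The 6 that did not were SLC2A3, PFKFB3, PFKFB4, ADM, EGLN3 and EPAS1.

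The 4 groups were LNCaP cells transfected with miR-130a, with miR-203, with miR-205, or with a scramble microRNA as the control, with 3 arrays of total RNA per group that the labels call biological replicates. All cells had been transfected, no untransfected cells were included, and the labels name neither the time after transfection nor an oxygen condition. The groups share 1 cell line, and the transfected microRNAs themselves were not measured here. Values are deposited log2 intensities, and a difference is given with its standard error (SE) from a limma fit over all 12 arrays, positive where the microRNA group, or the one named first, was higher. Adjusted p is Benjamini-Hochberg's over all 6821 genes, and a gene passed below 0.05. All comparisons with scramble share the same 3 scramble arrays.

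Glycolysis splits glucose to pyruvate in the cytosol, and lactate dehydrogenase turns pyruvate into lactate when it is not burned in mitochondria. When oxygen is short, prolyl hydroxylases no longer mark the alpha subunits of HIF for destruction. HIF1A or EPAS1 then pairs with ARNT and raises transcription of glucose transporters, most glycolytic enzymes and many genes of pH control, mitophagy and collagen maturation. HIF is mostly controlled at the level of the protein, which arrays do not measure. Prostate luminal cells are known for a metabolism that secretes citrate, and glycolysis usually rises late in prostate cancer.

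A microRNA pairs with messenger RNAs mainly through its seed, bases 2 to 8, so the mature sequences of the transfected microRNAs are shown first, with the seed in capitals. They come from RefSeq (GRCh38.p14), 5′ to 3′, and the labels do not say which arm was used, so the arm generally taken as the active one is given. The entry hsa-miR-130a-3p is named only. The seeds of the 2 printed microRNAs differ.
hsa-miR-203a-3p: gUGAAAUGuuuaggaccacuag
hsa-miR-205-5p: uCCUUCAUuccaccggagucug

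HIF binds a short core in promoters, ACGTG or GCGTG, so the promoters of 3 members that were higher with miR-205 are shown, with each core on either strand in capitals. They are BNIP3, with many cores, the enzyme gene ALDOC, with several, and the enzyme gene PGAM1, with none in this window. Each runs 5′ to 3′ on the gene's strand over the window around its start in RefSeq (GRCh38.p14). The BNIP3 window lies at chr10:131981874-131982173 on the minus strand, that of ALDOC at chr17:28576846-28577145 on the minus strand and that of PGAM1 at chr10:97427568-97427867 on the plus strand.
BNIP3: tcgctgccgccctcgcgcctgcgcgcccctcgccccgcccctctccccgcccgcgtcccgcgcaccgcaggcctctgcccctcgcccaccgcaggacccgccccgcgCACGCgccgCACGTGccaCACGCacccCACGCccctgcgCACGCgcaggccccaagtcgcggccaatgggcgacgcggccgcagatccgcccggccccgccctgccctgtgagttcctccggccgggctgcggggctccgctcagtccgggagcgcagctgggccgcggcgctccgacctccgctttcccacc
ALDOC: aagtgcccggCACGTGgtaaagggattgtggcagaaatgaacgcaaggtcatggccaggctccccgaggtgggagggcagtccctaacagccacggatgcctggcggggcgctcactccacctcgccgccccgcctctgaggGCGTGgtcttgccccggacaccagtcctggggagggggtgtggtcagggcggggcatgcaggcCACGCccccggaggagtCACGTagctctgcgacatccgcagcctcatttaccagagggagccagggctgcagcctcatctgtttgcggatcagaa
PGAM1: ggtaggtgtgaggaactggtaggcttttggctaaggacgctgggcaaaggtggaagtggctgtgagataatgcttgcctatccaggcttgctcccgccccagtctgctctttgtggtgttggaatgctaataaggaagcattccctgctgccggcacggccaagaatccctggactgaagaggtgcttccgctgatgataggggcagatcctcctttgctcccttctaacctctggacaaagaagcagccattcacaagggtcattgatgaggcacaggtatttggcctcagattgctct
A CACGTG, the E-box that MYC-type factors also bind, holds the core on both strands and counts as 2 cores. In these counts BNIP3 has 6 cores and ALDOC 5. A core stands in 48.4% of all 35116 promoter windows of this length, against 62.2% of 37 windows of the 17 enzymes and 76% of 25 windows of 16 other hypoxia-induced genes. Among the 66 windows of all 36 matched members, 66.7% hold a core. Among 20 windows of the 9 of these members that were higher with miR-205, 60% do, and 7 of the 20 are windows of PFKM. Windows of 1 gene can overlap, and a match is a description of the letters, not a site.

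The tissue label was checked against markers of prostate cells. Of 8 luminal markers named on the arrays, 7 lay above the array median on all 12 arrays, with KLK3 between 10.14 and 12.06 log2, and TRPM8 lay above it on 0. The basal markers KRT5, KRT14 and NGFR and the 7 leukocyte and endothelial markers were above the median on 0 arrays, as were the fibroblast and muscle genes COL1A2, DCN, LUM and MYH11. The basal marker ITGA6, COL1A1 and ACTA2 lay above it on all 12 arrays and COL3A1 on 2. The array medians lie between 2.76 and 2.78 log2 and the highest value is 13.95. Arrays of 1 group correlated across the tested genes with r between 0.992 and 0.997, and those of unlike groups with r of 0.964 to 0.986. The excess of 3′ over 5′ GAPDH control signal, a sign of RNA quality, ran from 0.56 to 0.90 log2 on scramble arrays. That range spans every microRNA group (0.60 to 0.80), but no single scramble array lay among them. Scramble replicates 2 and 3 (0.56 and 0.57) lay below all microRNA arrays and replicate 1 above them. The same excess for the ACTB control was larger, from 2.18 to 2.54 log2 on the microRNA arrays. For ACTB the scramble arrays overlapped every microRNA group. Scramble replicate 1 was the highest of the 12 arrays on both controls (0.90 for GAPDH and 2.66 for ACTB), and it enters every comparison with scramble.

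With miR-205 the pathway was higher in parts: 11 of the 31 tested members rose, 0 fell and 20 did not pass. The risers were the enzymes HK2, PFKM, ALDOC, PGK1, PGAM1 and LDHA, the effectors BNIP3, BNIP3L, NDRG1 and MXI1, and HIF1A. With miR-203, 6 rose (17.3% of all genes did; HK2, PFKM, PGAM1, BNIP3, KDM3A and ARNT) and 4 fell (18.9%; GPI, PFKL, BNIP3L and NDRG1). With miR-130a, PGAM1 and KDM3A rose (12% of all genes) and MXI1 fell (11.6%), and 28 did not pass. The 4 groups differed by the moderated F-test for 17 of 31 members (54.8%), beside 60.8% of all genes tested.

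These counts were read against the background of each comparison. With miR-205, 35.5% of the tested members passed beside 26.1% of all genes. Higher genes made up 11.3% of all genes tested and lower ones 14.8%, while among the members it was 11 and 0. For miR-203 the share was 32.3% beside 36.2%, and for miR-130a 9.68% beside 23.6%, so neither count lay above its background. Of the 7 tested luminal prostate markers, 4 fell with miR-203 (the lowest at -1.60 log2), 1 fell with miR-130a, and 2 rose and 1 fell with miR-205; their part in the results was not tested. The 3 arrays of a microRNA did not overlap the scramble arrays for 10 members with miR-130a (32.3%, beside 39.2% of all genes), 15 with miR-203 (48.4%, beside 44.3%) and 15 with miR-205 (48.4%, beside 39%). The median difference of the tested members was 0.13 log2 with miR-205, 0.062 with miR-203 and 0.022 with miR-130a, and that of all genes was between -0.0085 and 0.0061. Total RNA of a culture was measured, so fewer expressing cells and less RNA per cell cannot be told apart.

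**Figure D1:**
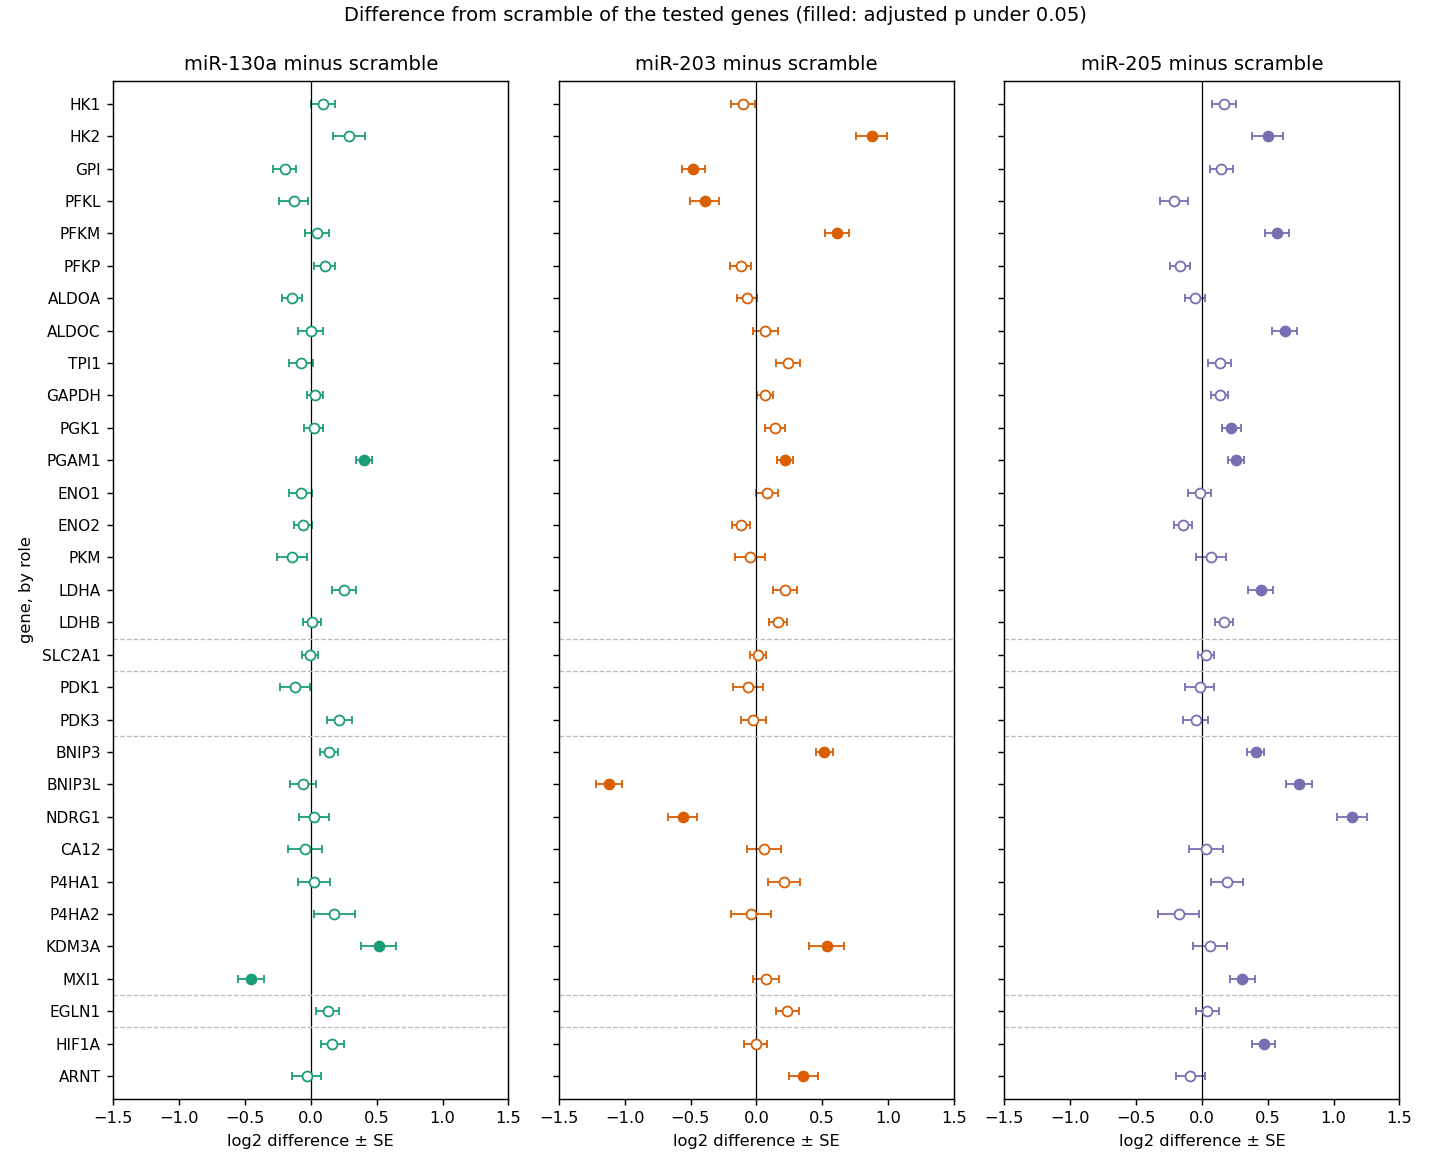
Log2 difference from scramble (horizontal axis, ± SE of the fit, 3 arrays per group) of the 31 tested genes, ordered by role with dashed lines between roles: enzymes, transporter, kinases, effectors, oxygen sensor and HIF subunits. Filled points passed at adjusted p under 0.05: 3 with miR-130a, 10 with miR-203 and 11 with miR-205, the last all to the right of 0.

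Of the hexokinase genes of the entry step, HK2 was higher in 2 groups and HK1 did not pass against scramble. HK2, the inducible hexokinase that traps glucose in the cell, read 4.81, 4.76 and 4.36 log2 on scramble arrays and 5.58, 5.63 and 5.35 with miR-203. With miR-205 it read 5.004, 5.30 and 5.11, and with miR-130a 4.88, 4.96 and 4.95. Every microRNA array lay above every scramble array, and miR-203 arrays lay highest. HK2 rose by 0.88 ± 0.12 with miR-203 (adjusted p = 0.00011, limma), or 1.83-fold, and by 0.50 ± 0.12 with miR-205 (adjusted p = 0.00796, limma). The difference of 0.29 ± 0.12 with miR-130a did not pass (adjusted p = 0.103, limma). Averaged over its 2 probe sets, of which the other was above the array median on 1 array, HK2 was at 0.53 with miR-203 and 0.30 with miR-205. The constitutive HK1 was brighter, with a mean over the 12 arrays of 7.51 log2 against 5.06 for HK2. It differed by between -0.10 and 0.17 in these comparisons and did not pass.

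Phosphofructokinase, the committing step of the pathway, is built from 3 kinds of subunit, and they went different ways. The muscle-type subunit gene PFKM read 7.77, 7.70 and 7.65 log2 on scramble arrays and 7.75, 7.77 and 7.73 with miR-130a. It read 8.51, 8.16 and 8.28 with miR-203 and 8.20, 8.39 and 8.23 with miR-205. The scramble and miR-130a arrays overlapped, and all 6 arrays of the other two groups lay above them. PFKM rose by 0.61 ± 0.09 with miR-203 (adjusted p = 0.000177, limma) and by 0.57 ± 0.09 with miR-205 (adjusted p = 0.000441, limma). The liver-type PFKL, by contrast, fell by 0.39 ± 0.11 with miR-203 (adjusted p = 0.013, limma). It did not pass without miR-203 replicate 3 (adjusted p = 0.0569), with no filter on dim genes (adjusted p = 0.051) and with the gene's other probe set, at -0.24 (adjusted p = 0.0962). The platelet-type PFKP lay between -0.17 and 0.11 and did not pass.

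GPI, which turns glucose 6-phosphate into fructose 6-phosphate just before that step, was lower with miR-203. It read 9.34, 9.65 and 9.46 log2 on scramble arrays and 8.95, 9.12 and 8.93 with miR-203. These groups did not overlap, and GPI fell by 0.48 ± 0.09 (adjusted p = 0.000947, limma). With miR-130a it read 9.29, 9.25 and 9.31 and with miR-205 9.61, 9.72 and 9.56, and neither difference passed (-0.20 and 0.15).

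Of the aldolases ALDOA and ALDOC, which cut fructose bisphosphate, the brain-type ALDOC passed, with miR-205. ALDOC read 6.71, 6.83 and 6.49 log2 with miR-205, against 5.88, 6.13 and 6.13 on scramble arrays. With miR-130a it read 6.12, 6.01 and 6.01 and with miR-203 6.06, 6.15 and 6.13. All 3 miR-205 arrays lay above the other 9, which overlapped among groups. ALDOC rose by 0.63 ± 0.09 with miR-205 (adjusted p = 0.000333, limma), or 1.55-fold. The main form ALDOA lay between -0.14 and -0.05 and TPI1, triose phosphate isomerase, between -0.08 and 0.24 (adjusted p = 0.0506 with miR-203, limma), and neither passed.

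GAPDH and PGK1 catalyse the next steps, the second of which yields ATP. GAPDH read 12.53, 12.58 and 12.45 log2 on scramble arrays, 12.57, 12.55 and 12.52 with miR-130a, 12.57, 12.58 and 12.59 with miR-203 and 12.67, 12.64 and 12.64 with miR-205. Its differences of 0.03, 0.06 and 0.13 did not pass (adjusted p = 0.781, 0.457 and 0.13, limma). With miR-205 GAPDH passed under quantile scaling (0.19, adjusted p = 0.0336) and with no filter on dim genes (adjusted p = 0.0177). The GAPDH probe set used, 1 of 6, is the 3′ control that also enters the RNA quality measure. On the others the miR-205 difference ran from 0.015 to 0.14 and did not pass (adjusted p from 0.277 to 0.938, limma over all probe sets). The second brightest GAPDH probe set gave -0.04 with miR-203, so GAPDH has no settled direction there. PGK1 rose by 0.22 ± 0.07 with miR-205 (adjusted p = 0.0377, limma), from 10.93 ± 0.04 (SD, n = 3) to 11.15 ± 0.10 (SD, n = 3). The PGK1 call ended on removal of any 1 scramble array (adjusted p = 0.0899, 0.0757 and 0.0598 for replicates 1, 2 and 3), of miR-205 replicates 2 and 3 (0.119 and 0.108), or of miR-130a replicates 2 and 3 (0.0519 and 0.0515). It also ended in a fit restricted to these 6 arrays (adjusted p = 0.0687) and with the mean of its probe sets (0.11, adjusted p = 0.172), and its probe set of largest variance, which is also its second brightest, gave 0.041 (adjusted p = 0.855).

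PGAM1, phosphoglycerate mutase, passed in every comparison with scramble. It read 10.61, 10.65 and 10.58 log2 on scramble arrays and 10.99, 11.05 and 11.02 with miR-130a. With miR-203 it read 10.85, 10.80 and 10.84 and with miR-205 10.84, 10.86 and 10.92. All 9 microRNA arrays lay above the scramble arrays, and the miR-130a arrays lay above the rest. The rises were 0.40 ± 0.06 (adjusted p = 0.000415), 0.21 ± 0.06 (adjusted p = 0.0151) and 0.26 ± 0.06 (adjusted p = 0.00704, all limma), and they rest on the same 3 scramble arrays. Of the 17 enzymes, PGAM1 was the 1 that passed with miR-130a.

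LDHA, the lactate dehydrogenase subunit that HIF raises, had its highest group mean with miR-205. It read 10.72, 10.94 and 10.66 log2 on scramble arrays, 10.97, 11.04 and 11.07 with miR-130a, 10.92, 10.95 and 11.10 with miR-203 and 11.09, 11.33 and 11.23 with miR-205. The miR-203 arrays overlapped the scramble arrays, and those of miR-130a and miR-205 lay above scramble. The miR-205 arrays overlapped those of miR-203. Neither miR-130a minus miR-205 (-0.19, adjusted p = 0.139, limma over all probe sets) nor miR-203 minus miR-205 (-0.23, adjusted p = 0.0659, limma) passed. LDHA rose by 0.45 ± 0.09 with miR-205 (adjusted p = 0.00288, limma), or 1.36-fold. The differences of 0.25 ± 0.09 with miR-130a (adjusted p = 0.0611) and 0.22 ± 0.09 with miR-203 (adjusted p = 0.0797, limma) did not pass. With array weights they did (0.30, adjusted p = 0.0132, and 0.23, adjusted p = 0.0366), and with miR-130a also under quantile scaling (adjusted p = 0.041) and with the mean of probe sets as each gene's value (adjusted p = 0.0475). LDHA has 1 probe set here, so the mean of probe sets left its own values unchanged. The heart-type subunit LDHB (0.01, 0.17 and 0.17), the enolases ENO1 and ENO2 and the pyruvate kinase PKM did not pass in any of the 3 comparisons. ENO2 was close to the array median, at 2.70 to 2.96 log2, and read 2.78114 on all 3 miR-203 arrays.

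**Figure D2:**
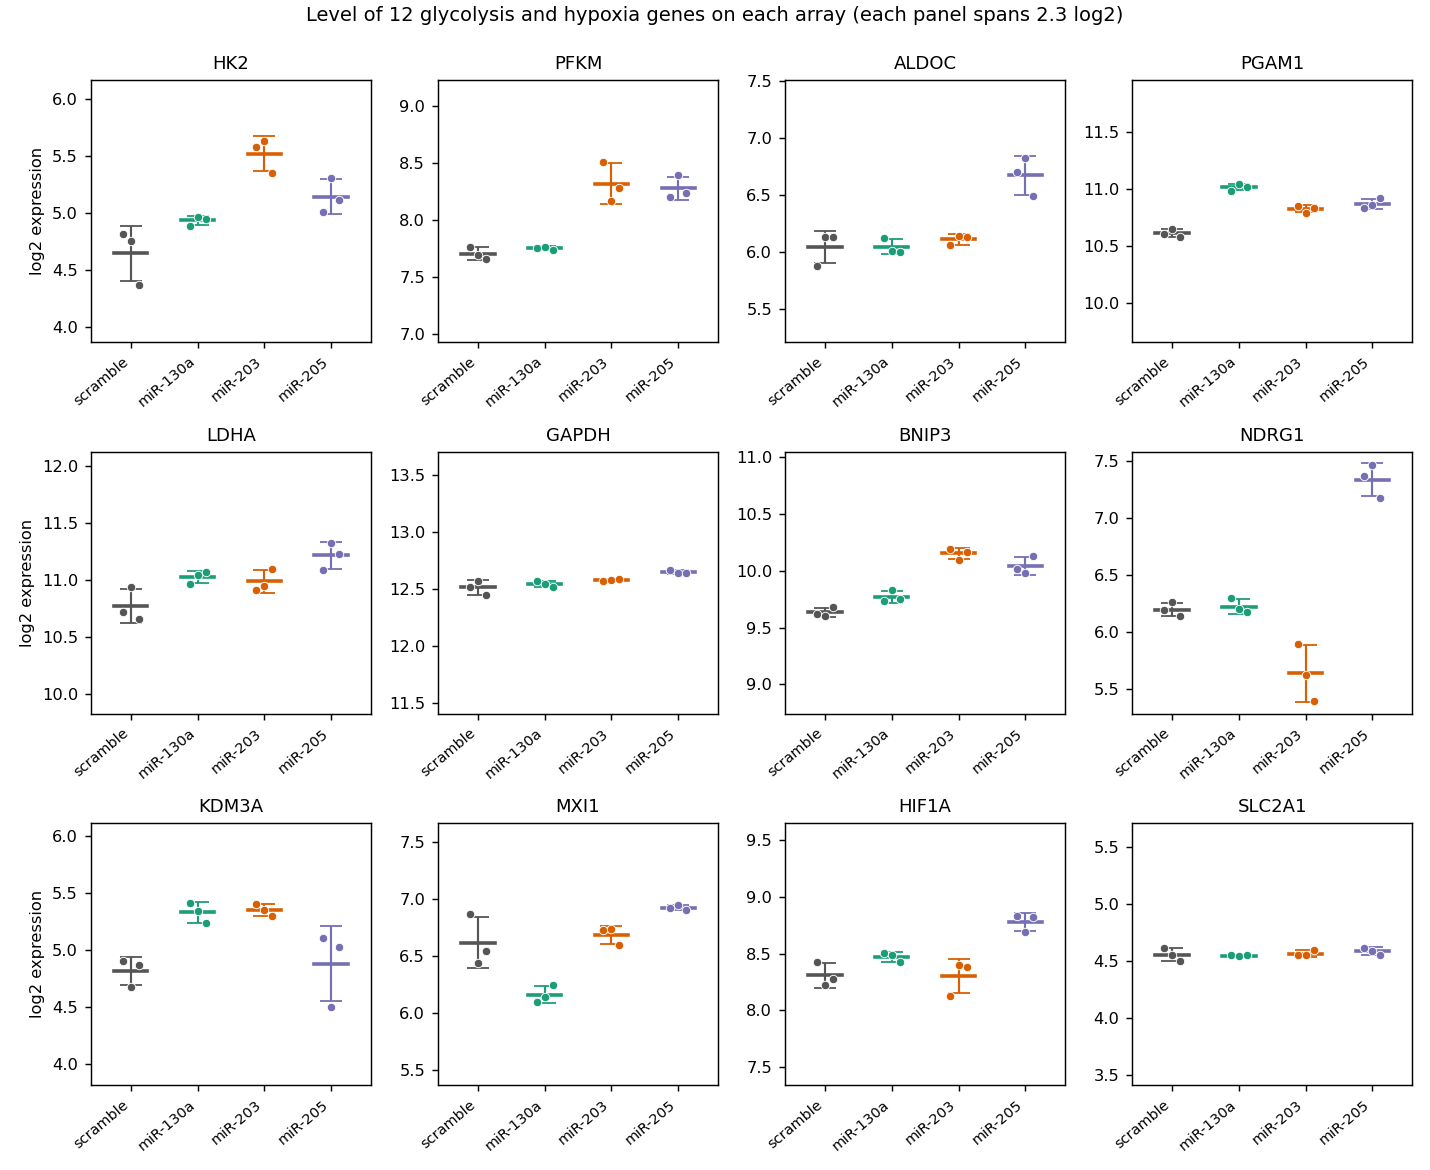
Log2 expression of 12 genes on each array (points, 3 per group), with the group mean (bar) and SD (whiskers); every panel spans the same 2.3 log2 units. NDRG1 separates miR-205 (7.18 to 7.47) and miR-203 (5.39 to 5.89) arrays from scramble (6.14 to 6.26) in opposite directions. SLC2A1 lies between 4.50 and 4.62 on all arrays, with an identical value on arrays of all 4 groups.

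Transporters and the kinases that steer carbon did not pass in any comparison with scramble. SLC2A1, the basal glucose transporter and a standard HIF target, read 4.61, 4.55 and 4.50 log2 on scramble arrays, 4.55, 4.54 and 4.55 with miR-130a, 4.55, 4.55 and 4.60 with miR-203 and 4.62, 4.59 and 4.55 with miR-205. All groups overlapped. The 95% interval of its difference ran from -0.14 to 0.13 with miR-130a, -0.12 to 0.14 with miR-203 and -0.10 to 0.16 with miR-205. The identical value 4.54654 recurs on arrays of all 4 groups, so these narrow intervals cannot be read as a steady gene. Its other probe set was above the array median on 0 arrays. SLC2A3 was above the array median on 0 arrays.

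PDK1, the kinase that turns off pyruvate dehydrogenase under HIF, was close to the array median throughout. It read 2.88, 2.68 and 2.59 log2 on scramble arrays, 2.57, 2.57 and 2.65 with miR-130a, 2.59, 2.58 and 2.80 with miR-203 and 2.62, 2.96 and 2.53 with miR-205. These overlap, and PDK1 was above the median on 1, 0, 1 and 1 arrays of the groups in that order. Its relative PDK3 differed by 0.21 ± 0.09 with miR-130a (adjusted p = 0.121, limma) and by less than 0.05 in size with the other two. PFKFB3, an activator of phosphofructokinase, was above the array median on 1 miR-205 array only, and PFKFB4 on 0 arrays.

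The mitophagy receptors BNIP3 and BNIP3L tag mitochondria for removal and are induced by HIF. With miR-203 they moved apart on the probe sets that represent them, but not on the other BNIP3L probe set. BNIP3 read 9.61, 9.60 and 9.68 log2 on scramble arrays and 9.73, 9.83 and 9.75 with miR-130a. It read 10.19, 10.10 and 10.17 with miR-203 and 10.01, 9.98 and 10.13 with miR-205. Every microRNA array lay above the scramble arrays, and those of miR-203 and miR-205 overlapped. BNIP3 rose by 0.52 ± 0.07 with miR-203 (adjusted p = 7.85e-05) and by 0.41 ± 0.07 with miR-205 (adjusted p = 0.000685, limma), while 0.14 ± 0.07 with miR-130a did not pass (adjusted p = 0.17). Its second probe set gave 0.41 and 0.31 for the calls.

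BNIP3L read 8.35, 8.21 and 8.35 log2 on scramble arrays and 8.28, 8.22 and 8.24 with miR-130a, with overlap. It read 6.93, 7.26 and 7.37 with miR-203, below every other array, and 9.09, 8.97 and 9.07 with miR-205, above every other array. It fell by 1.12 ± 0.10 with miR-203 (adjusted p = 3.02e-06), or 2.17-fold, and rose by 0.74 ± 0.10 with miR-205 (adjusted p = 0.000139, limma). The gene's other probe set did not show the decrease. There the miR-203 arrays read 8.01, 7.86 and 7.76, overlapping the scramble arrays at 7.69, 7.88 and 7.85, and the difference was 0.07 ± 0.10 (adjusted p = 0.631 in a limma fit of all probe sets). The increase with miR-205 passed on both, at 0.40 ± 0.10 (adjusted p = 0.0142) on the other probe set. With the mean of both, BNIP3L was at -0.52 with miR-203.

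**Figure D3:**
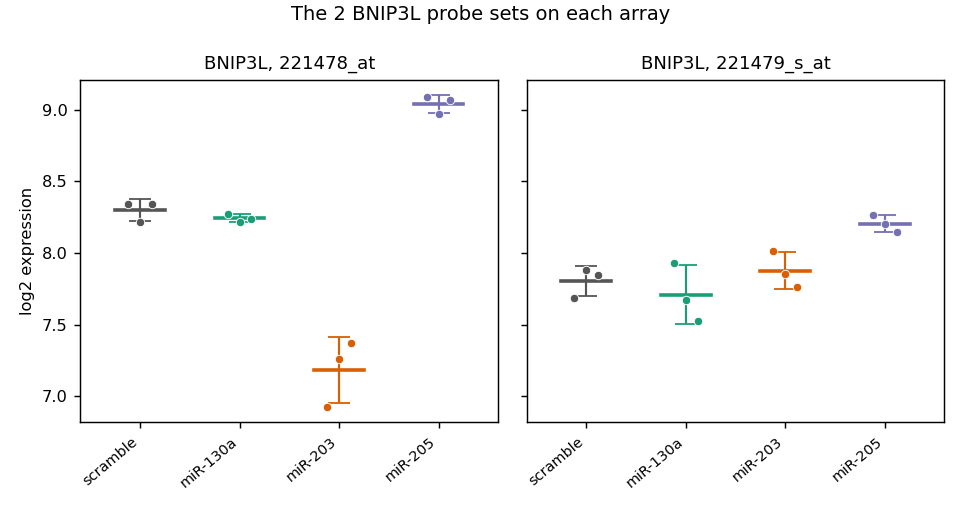
Log2 expression on each array (points), group mean (bar) and SD (whiskers) for both probe sets of BNIP3L; the left one represents the gene. The miR-203 arrays lie at 6.93 to 7.37 on the left and at 7.76 to 8.01 on the right, while miR-205 arrays are highest on both.

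NDRG1, a stress- and hypoxia-induced gene that is also androgen-responsive, showed the largest rise among the members with miR-205. It read 6.19, 6.26 and 6.14 log2 on scramble arrays and 6.30, 6.20 and 6.17 with miR-130a, with overlap. It read 5.89, 5.63 and 5.39 with miR-203 and 7.37, 7.47 and 7.18 with miR-205. Neither of those groups overlapped scramble. NDRG1 rose by 1.14 ± 0.11 with miR-205 (adjusted p = 1.49e-05), or 2.20-fold, and fell by 0.56 ± 0.11 with miR-203 (adjusted p = 0.00192, limma). It has a single named probe set here.

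KDM3A, a histone demethylase that HIF induces, was higher with miR-130a and miR-203. It read 4.90, 4.68 and 4.87 log2 on scramble arrays, 5.42, 5.34 and 5.23 with miR-130a and 5.40, 5.35 and 5.30 with miR-203. The miR-205 arrays read 5.11, 4.50 and 5.03 and overlapped scramble. KDM3A rose by 0.53 ± 0.13 with miR-203 (adjusted p = 0.00658) and by 0.52 ± 0.13 with miR-130a (adjusted p = 0.0122, limma). The latter did not pass on removal of miR-130a replicate 1 (adjusted p = 0.0504) or scramble replicate 2 (0.0505) and with no filter on dim genes (adjusted p = 0.0622).

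MXI1, which opposes MYC and is raised by HIF, fell with miR-130a. It read 6.86, 6.43 and 6.54 log2 on scramble arrays, 6.10, 6.13 and 6.24 with miR-130a, 6.73, 6.73 and 6.59 with miR-203 and 6.92, 6.94 and 6.90 with miR-205. The miR-130a arrays lay below all others, the miR-205 arrays above all others, and miR-203 overlapped scramble. MXI1 fell by 0.46 ± 0.10 with miR-130a (adjusted p = 0.00468) and rose by 0.31 ± 0.10 with miR-205 (adjusted p = 0.035, limma). The rise did not pass on removal of scramble replicate 2 (0.22, adjusted p = 0.138) or 3 (0.112), or of any miR-205 array (0.0837, 0.0823 and 0.0734 for replicates 1, 2 and 3). It also ended in the fit of 6 arrays (adjusted p = 0.102) and with no filter on dim genes (adjusted p = 0.0928).

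Other effectors did not pass in any comparison with scramble. The collagen prolyl hydroxylases P4HA1 and P4HA2 lay between 0.02 and 0.21 and between -0.17 and 0.18, and the carbonic anhydrase CA12, which handles acid at the cell surface, between -0.04 and 0.06. The vasodilator peptide gene ADM exceeded the median of its array on 1 miR-130a array and 0 others. Of the oxygen-sensing prolyl hydroxylases, EGLN1 lay between 0.04 and 0.24 (adjusted p = 0.0505 with miR-203, limma), and EGLN3, itself a strong HIF target, was above the median on 2 miR-203 arrays and 0 others.

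HIF1A, the oxygen-labile subunit, was higher at the RNA level with miR-205. It read 8.43, 8.22 and 8.28 log2 on scramble arrays, 8.51, 8.49 and 8.42 with miR-130a, 8.13, 8.40 and 8.38 with miR-203 and 8.83, 8.69 and 8.82 with miR-205. The miR-205 arrays lay above the other 9, and the other groups overlapped scramble. HIF1A rose by 0.47 ± 0.09 with miR-205 (adjusted p = 0.00151, limma), or 1.39-fold, and differed by 0.16 ± 0.09 with miR-130a (adjusted p = 0.203) and -0.01 ± 0.09 with miR-203 (adjusted p = 0.963). Its partner ARNT rose by 0.36 ± 0.11 with miR-203 (adjusted p = 0.0241, limma), from 4.22 ± 0.06 (SD, n = 3) to 4.57 ± 0.19 (SD, n = 3). The ARNT call ended on removal of miR-203 replicate 1 (0.24, adjusted p = 0.0992) or of scramble replicates 1 and 3 (0.0614 and 0.0686), with array weights (adjusted p = 0.0574), with the mean of its probe sets (0.14, adjusted p = 0.126) and with no filter on dim genes (adjusted p = 0.0816). EPAS1, the other alpha subunit, was above the array median on 0 arrays.

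Enzymes and other hypoxia-induced genes were then set side by side. With miR-205, 6 of 17 enzymes rose and 0 fell, and 4 of 12 tested other hypoxia-induced genes rose and 0 fell. With miR-203 the enzymes had 3 higher and 2 lower and the other genes 2 and 2, and with miR-130a these were 1 and 0 and 1 and 1. The shares called were 35.3% and 33.3% with miR-205, 29.4% and 33.3% with miR-203 and 5.88% and 16.7% with miR-130a, against 26.1%, 36.2% and 23.6% of all genes. Median differences of the enzymes were 0.15, 0.067 and 0.0066 in that order, and those of the other genes 0.052, 0.033 and 0.026. Differences of the other genes ran from -1.12 to 0.53 with miR-203 and from -0.17 to 1.14 with miR-205, and those of the enzymes from -0.48 to 0.88 and from -0.21 to 0.63. The -1.12 is BNIP3L, whose other probe set gave 0.07, and the next lowest was NDRG1 at -0.56.

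Averaged over the 12 tested other hypoxia-induced genes, the 3 miR-205 arrays lay between 5.63 and 5.65 log2, above all other arrays (5.35 to 5.48 for scramble, 5.43 to 5.48 for miR-130a and 5.39 to 5.42 for miR-203). For the 17 enzymes the miR-205 arrays lay between 8.77 and 8.89, above scramble (8.60 to 8.70) and miR-130a (8.66 to 8.69) but overlapping miR-203 (8.67 to 8.77). These means are descriptions with no test, and the miR-205 mean of the other genes includes NDRG1 and BNIP3L. The median over the same genes did not set miR-205 apart. For the other genes it was 4.79 to 4.86 with miR-205, within the scramble range of 4.65 to 4.93. It was higher with miR-130a (4.95 to 5.08) and miR-203 (4.96 to 5.14). For the enzymes it was 9.56 to 9.78 with miR-205 and 9.40 to 9.79 on scramble arrays.

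**Figure D4:**
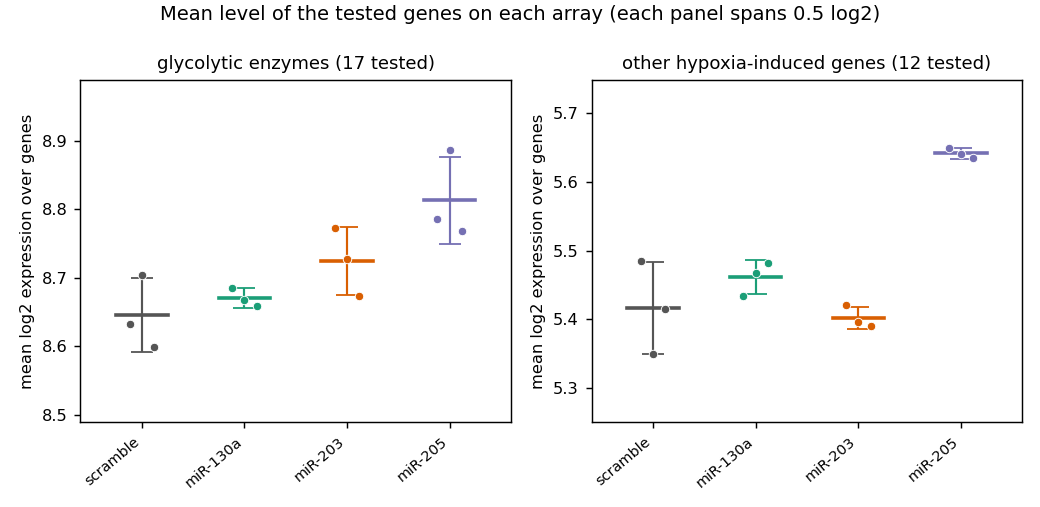
Mean log2 expression over the 17 tested enzymes (left) and the 12 tested other hypoxia-induced genes (right) on each array (points), with the group mean (bar) and SD (whiskers); both panels span 0.5 log2. On the right the miR-205 arrays (5.63 to 5.65) lie above the other 9, and on the left their lowest value, 8.77, lies within the range of the miR-203 arrays. Medians over the same genes, not drawn, overlap between miR-205 and scramble.

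Between microRNAs, miR-203 and miR-205 arrays differed for 9 members (3 higher and 6 lower with miR-203), or 29% beside 37.9% of all genes (21% higher and 16.9% lower). BNIP3L was lower with miR-203 by 1.86 ± 0.10 (adjusted p = 2.34e-08) and by 0.33 ± 0.10 on its other probe set (adjusted p = 0.0274), and NDRG1 by 1.70 ± 0.11 (adjusted p = 1.62e-07, limma), or 3.25-fold. GPI and ALDOC were lower by 0.63 ± 0.09 and 0.56 ± 0.09. HIF1A was lower by 0.48 ± 0.09 (adjusted p = 0.000927), and HK2, KDM3A and ARNT were higher. HK1 was lower with miR-203 by 0.27 ± 0.09 (adjusted p = 0.0328, limma). With the replicate number as a block in all 12 arrays the same 9 members passed. With the block in these 6 arrays alone 9 passed, 8 of them shared: HK1 no longer did (adjusted p = 0.0505) and MXI1, lower with miR-203 by 0.24, did (adjusted p = 0.0496, limma). KDM3A was near the threshold there (adjusted p = 0.0469, limma). In the same 6 arrays with no block 8 passed, 7 of them shared. KDM3A (adjusted p = 0.0587) and HK1 (0.0515) then did not pass, and MXI1 did (0.0339, limma).

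Between miR-130a and miR-205, 12 members passed (3 higher and 9 lower with miR-130a), or 38.7% beside 33.6% of all genes (18.2% higher and 15.4% lower). The largest differences were NDRG1 at -1.11 ± 0.11, BNIP3L at -0.80 ± 0.10, MXI1 at -0.76 ± 0.10 and ALDOC at -0.63 ± 0.09. Between miR-130a and miR-203, 11 passed (5 higher and 6 lower with miR-130a), or 35.5% beside 41.2% (21.1% higher and 20.1% lower), and 7 without miR-130a replicate 3. BNIP3L was higher with miR-130a by 1.06 ± 0.10 (its other probe set gave -0.17, adjusted p = 0.225) and NDRG1 by 0.59 ± 0.11, while HK2 and PFKM were lower by 0.59 ± 0.12 and 0.57 ± 0.09. PGAM1 was higher with miR-130a than with miR-203 by 0.19 ± 0.06 (adjusted p = 0.0243, limma). The 2 sets of arrays stood apart without overlap for 16 members between miR-130a and miR-203 (51.6%, beside 52.9% of all genes), 22 between miR-130a and miR-205 (71%, beside 49.7%) and 11 between miR-203 and miR-205 (35.5%, beside 47.2%).

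Other genes of the HIF pathway were taken from a list of 35, of which 32 were named and 23 tested. Of these, 4 rose and 6 fell with miR-130a (43.5% called, beside 23.6% of all genes), 8 and 6 with miR-203 (60.9%, beside 36.2%) and 6 and 4 with miR-205 (43.5%, beside 26.1%). CITED2, a HIF-induced protein that competes with HIF for the coactivators CBP and p300, rose by 1.36 ± 0.07 with miR-130a (adjusted p = 1.25e-08), 1.30 ± 0.07 with miR-203 (adjusted p = 2.49e-08) and 0.96 ± 0.07 with miR-205 (adjusted p = 9.4e-07, limma). The histone demethylase gene KDM4B rose by 0.79 ± 0.09, 0.76 ± 0.09 and 0.83 ± 0.09. VEGFA, the angiogenic factor that HIF is best known to raise, fell by 0.56 ± 0.07, 0.52 ± 0.07 and 0.51 ± 0.07, and was singled out after its values were seen. STC2, a secreted glycoprotein, fell by 0.93 ± 0.12, 0.71 ± 0.12 and 0.75 ± 0.12. All 4 sets of values rest on the same scramble arrays. Genes of this list were not followed on other probe sets or under the other settings used for the members.

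The heme-degrading HMOX1 fell by 1.57 ± 0.23 with miR-130a, by 0.65 ± 0.23 with miR-203 (adjusted p = 0.0414, limma, with overlapping arrays) and by 1.48 ± 0.23 with miR-205. HILPDA, a lipid droplet protein, rose by 0.41 ± 0.12 with miR-130a and differed by 0.02 and -0.08 with miR-203 and miR-205. INSIG2, which holds back sterol synthesis, rose by 0.87 ± 0.10 with miR-203 but fell by 0.40 ± 0.10 with miR-130a. RBPJ, the DNA-binding factor of Notch signalling, fell by 0.76 ± 0.09 with miR-203 and rose by 0.43 ± 0.09 with miR-205.

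Enzymes that route glucose carbon elsewhere came from a list of 36, with 32 named and 23 tested. Of these 0 rose and 3 fell with miR-130a (13% called, beside 23.6% of all genes), 4 and 7 with miR-203 (47.8%, beside 36.2%) and 5 and 3 with miR-205 (34.8%, beside 26.1%). PGM1, which links glucose 6-phosphate to glycogen, fell by 1.09 ± 0.09 with miR-130a, 0.93 ± 0.09 with miR-203 and 0.59 ± 0.09 with miR-205, and the glycogen phosphorylase PYGB by 0.46 ± 0.10, 1.45 ± 0.10 and 0.77 ± 0.10 in the same order of groups. PFKFB2, which makes the activator of phosphofructokinase, rose by 0.81 ± 0.11 with miR-205 (adjusted p = 0.000166, limma) and differed by -0.12 and 0.02 with miR-130a and miR-203.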

How the data were processed

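Affymetrix-type probe set values of 12 arrays were used as deposited. The authors deposited values that were taken as log2 from their range (2.36 to 13.95, with array medians of 2.76 to 2.78), and the submitters' processing notes list R 2.9.0, RMA and limma without saying what each did; the background method is not given in the sources used here. Gene symbols came from the platform annotation (of 22277, 19070 have 1 symbol, 1043 several and 2164 none; only the first were used, and 0 symbols had to be changed). A model of 4 group means was fitted to the tested genes with limma 3.58.1 in R 4.3.3 (eBayes, 8 residual and 4.84 prior degrees of freedom), tested on simulated data and moderated over all 6821 genes. P-values are two-sided and measure the spread between these cultures, and 3 arrays per group limit the precision. Members, lists and tests were chosen with earlier results of these data known. Values per array are given for up to 6 called members per comparison with scramble, those of largest absolute difference without overlap between groups. They are also given for HIF1A, SLC2A1, LDHA, GAPDH and PDK1, and GPI was added after its values were seen. From both pathway lists up to 3 called genes per direction with the largest absolute difference were named, so these are extremes of their lists. Genes of these lists were not followed under the alternatives. Alternatives were no filter, other probe sets or their mean, quantile scaling, 6 arrays, array weights, the replicate number as a block and leaving out each array; the second brightest probe set, and a block within the 6 miR-203 and miR-205 arrays, were added after seeing the data. Same-numbered arrays of these 2 groups correlated in their deviations from the group means (r = 0.171, 0.105 and 0.313), a pairing that comes from the data and not from the labels; no other pair of groups did so over 0.1 in any number. Some members, ALDOC, SLC2A1 and BNIP3L among them, hold equal values on arrays of 1 group, as deposited. Equal values also run across groups: SLC2A1 reads 4.54654 on arrays of all 4 groups, and EGLN1 4.10362 on arrays of miR-203, miR-205 and scramble. Promoter and microRNA sequences are RefSeq's, matched by symbol or name.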

Additional observations from a re-analysis of the deposited data

How the results depend on the processing

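The number of members past the threshold stayed within 1.5 times its value under the alternatives, with these exceptions. With miR-130a against scramble it was 6 with array weights instead of 3; the enzymes were 2 with the mean of probe sets, 2 with quantile scaling and 3 with array weights instead of 1, and the other hypoxia-induced genes 1 with no filter instead of 2; the cause was not tested. Leaving out 1 array gave 2 to 4, 9 to 12 and 9 to 11 members for miR-130a, miR-203 and miR-205 against scramble, 1 to 2, 4 to 7 and 5 to 6 enzymes, and 1 to 2, 4 to 5 and 3 to 4 other hypoxia-induced genes. Between microRNAs it gave 7 to 12 (miR-130a and miR-203), 8 to 12 (miR-130a and miR-205) and 7 to 11 (miR-203 and miR-205), and 13 to 17 for the F-test. Of the array omissions that moved a count by over 1.5 times, those without scramble replicate 1 and without scramble replicate 2 each gave 2 enzymes with miR-130a, those without miR-130a replicate 1 and without scramble replicate 2 each gave 1 other gene, and the one without miR-130a replicate 3 gave 7 members between miR-130a and miR-203. BNIP3L with miR-203 reversed, to 0.073, with its second brightest probe set. With the replicate number as a block the counts were 3, 10 and 11 against scramble, 14 between miR-130a and miR-203, 13 between miR-130a and miR-205 and 9 between miR-203 and miR-205. Same-numbered arrays correlated in their deviations over 0.1 in 3 of 18 pairs, the 3 pairs of miR-203 and miR-205, and 9 of 12 arrays correlated best with their own number; the other groups share only a number (r from -0.11 to 0.097). Genes below the array median have no order, so the 6 untested members give no direction.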

Other observations

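Probe sets of the same gene also gave different calls for 2 members that did not pass. The difference between probe sets was not tested. For ENO1, the main enolase, the second brightest probe set was higher than scramble by 0.27 ± 0.10 with miR-203 (adjusted p = 0.0418, limma over all probe sets), against 0.08 ± 0.09 on the one that represents the gene. That second probe set gave 0.26 with miR-205 and 0.17 with miR-130a, which did not pass. Its scramble arrays read 9.64, 9.98 and 9.98 log2. For PDK3 a dimmer probe set was higher by 0.32 ± 0.09 with miR-203 (adjusted p = 0.0197), against -0.02 ± 0.09. Both were noticed after the values were seen. Of the members, 12 had 2 or more probe sets bright enough to test.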
